A study of Mus musculus with 10 samples.

Results

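Open chromatin was compared in mouse retinal cells with and without Casz1, using the 4 ATAC-seq libraries among the 10 samples of the study: controls 1 and 2, labelled wild type, and cKO 1 and 2, labelled Casz1 cKO (conditional knockout). Their peak lists on chromosomes 1 to 19 were merged into 116384 open regions wherever peaks shared at least 1 bp. A region was kept as genotype-only when its calls favoured the same genotype, present there and absent from the other, inside both pairs of lists of similar length, control 1 with cKO 2 (the short lists) and control 2 with cKO 1 (the long lists). This left 318 cKO-only regions and 145 control-only regions.

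All 4 libraries were labelled strain C57BL/6, retina, postnatal day 2. Control explants were transfected with a plasmid for GFP, and cKO explants with plasmids for GFP and Cre, the recombinase that cuts out floxed DNA. After 2 days in culture, 50000 GFP-positive cells per library were sorted, leaving out cells stained by propidium iodide, a dye that enters dead cells. The control cells received no Cre, so Cre itself and the loss of Casz1 cannot be told apart, and neither the allele nor its deleted part is given in the sources used here. The labels place the work in 2 experiments run on separate days. They do not tie libraries to a day or to separate animals, so no p-value here can be read as measuring the spread between animals. The p-values cover these 4 libraries only. The names of the peaks carry the same number in control 2 and cKO 1 and different numbers in the other pair, and whether it marks a sample or a shared experiment is not stated. For description, the regions were also set against ChIP-seq peak lists of dissected newborn (P0) retina for H3K27ac and H3K27me3, each mark having 1 library per genotype and the cKO tissue being peripheral retina picked by its fluorescence.

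Casz1 is a zinc finger transcription factor expressed in retinal progenitors, the dividing cells that give rise to the neurons and Müller glia of the retina, and it has been linked to rod fate and to the NuRD complex, which slides nucleosomes and removes acetyl groups from histones. In ATAC-seq the transposase Tn5 inserts adapters where DNA is not wrapped tightly in nucleosomes, so peaks mark promoters, enhancers and other accessible sites. H3K27ac lies on active promoters and enhancers, and H3K27me3 is the Polycomb mark of repressed genes. In the newborn retina, late progenitors are making rods, bipolar cells and Müller glia.

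Promoters opened or closed in both pairs were very few. Of 16457 protein-coding genes with a RefSeq start site, a peak touched the window from 250 bases before to 50 bases after that site in 8980 (54.6%) in control 1, 10799 (65.6%) in control 2, 10621 (64.5%) in cKO 1 and 9629 (58.5%) in cKO 2. The windows of 8916 genes were touched in all 4 lists and those of 5570 in none. Both cKO lists and neither control list touched the windows of 2 genes (0.0122% of those tested), and both control lists and neither cKO list those of 4 genes (0.0243%). A gene counted when any of its windows was touched, so a genotype-only window beside another touched window of that gene is left out. At Pmvk, not among these genes, a cKO-only region overlies a listed start site. Opposite directions in the 2 pairs were seen for 12 genes, all of them cKO-only in the short pair and control-only in the long pair.

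The windows with a genotype-only call at a single start site are printed here, from genes where peaks of only 1 genotype reached any window. RefSeq sequence on GRCm38.p6 is given 5′ to 3′ on the gene's strand. Capitals mark the bases inside the peaks of both libraries of the genotype that had them. The control-only windows are those of Gm3488, a predicted gene (chr14:5501048-5501347, plus strand), 1700003F12Rik, a gene without a known role (chr2:154548654-154548953, plus strand), and Ptprf, which encodes the receptor tyrosine phosphatase LAR (chr4:118291348-118291647, minus strand). The cKO-only windows are those of Emilin1, a glycoprotein of elastic fibres (chr5:30913536-30913835, plus strand), and Gm20346, a predicted gene (chr9:62344598-62344897, minus strand).
Gm3488: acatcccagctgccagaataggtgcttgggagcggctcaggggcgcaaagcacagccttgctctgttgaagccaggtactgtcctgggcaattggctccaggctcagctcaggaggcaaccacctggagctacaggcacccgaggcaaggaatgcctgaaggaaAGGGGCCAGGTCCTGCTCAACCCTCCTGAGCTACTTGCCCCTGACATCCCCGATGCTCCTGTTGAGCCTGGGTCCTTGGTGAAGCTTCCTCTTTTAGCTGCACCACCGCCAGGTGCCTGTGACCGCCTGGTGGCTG
1700003F12Rik: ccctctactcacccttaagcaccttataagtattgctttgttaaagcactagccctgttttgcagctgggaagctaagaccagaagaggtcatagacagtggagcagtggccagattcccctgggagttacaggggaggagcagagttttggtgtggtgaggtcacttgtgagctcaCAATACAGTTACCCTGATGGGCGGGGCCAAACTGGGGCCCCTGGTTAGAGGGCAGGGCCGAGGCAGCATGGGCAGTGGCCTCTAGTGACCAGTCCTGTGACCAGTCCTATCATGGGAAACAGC
Ptprf: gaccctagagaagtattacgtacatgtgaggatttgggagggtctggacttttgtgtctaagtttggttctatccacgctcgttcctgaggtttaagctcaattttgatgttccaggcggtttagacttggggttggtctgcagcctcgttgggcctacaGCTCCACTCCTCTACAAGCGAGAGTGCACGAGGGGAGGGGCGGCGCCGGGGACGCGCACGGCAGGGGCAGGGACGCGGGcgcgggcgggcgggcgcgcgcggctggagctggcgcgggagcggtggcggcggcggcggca
Emilin1: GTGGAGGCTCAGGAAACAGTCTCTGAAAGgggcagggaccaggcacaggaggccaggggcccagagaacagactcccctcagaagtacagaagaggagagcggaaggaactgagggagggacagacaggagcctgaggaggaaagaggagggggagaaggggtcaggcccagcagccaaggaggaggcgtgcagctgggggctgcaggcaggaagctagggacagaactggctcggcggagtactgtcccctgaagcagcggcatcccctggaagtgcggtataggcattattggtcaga
Gm20346: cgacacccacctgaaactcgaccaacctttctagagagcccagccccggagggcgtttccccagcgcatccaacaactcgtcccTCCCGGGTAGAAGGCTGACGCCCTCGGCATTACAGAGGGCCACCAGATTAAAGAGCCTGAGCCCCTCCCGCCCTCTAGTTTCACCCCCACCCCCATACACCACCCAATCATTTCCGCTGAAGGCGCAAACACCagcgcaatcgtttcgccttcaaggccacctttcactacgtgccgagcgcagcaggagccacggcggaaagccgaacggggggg

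The capitals span 136 bases at Gm3488, 123 at 1700003F12Rik, 79 at Ptprf, 29 at Emilin1 and 133 at Gm20346. Peaks covered 136 and 232 bases of the Gm3488 window in controls 1 and 2, 216 and 123 of the 1700003F12Rik window, and 110 and 239 of the Ptprf window, beside 0 in both cKO lists for each. At Ptprf, Emilin1 and Gm20346, H3K27ac covered all 300 bases in both genotypes. At 1700003F12Rik it covered 7 bases in control and 0 in cKO. At Gm3488, H3K27ac covered 202 bases in control and 19 in cKO, and H3K27me3 all 300 in both.

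The Emilin1 window is an edge case. All 4 lists had a peak just upstream of it, 173 bp wide in control 1, 220 bp in control 2, 371 bp in cKO 1 and 412 bp in cKO 2. The control peaks ended 127 and 11 bases before the window, and the cKO peaks reached 29 and 71 bases into it, so the peak was wider in both cKO lists rather than absent from the controls. The Gm20346 window also lies within Anp32a, which encodes a nuclear phosphoprotein, and held 187 and 133 covered bases in cKO 1 and cKO 2. The fourth control-only gene, Pla2g4a, which encodes the cytosolic phospholipase A2, had 55 covered bases at 1 start site in control 1 and 86 at another in control 2, so no window of it was open in both. TAATCC, the core motif of Otx2 and Crx (GGATTA on the other strand), and CAGATG, an E-box of basic helix-loop-helix factors (CATCTG on the other strand), were not found on either strand in the 5 printed windows, with no overlap to report. Of all 20085 windows, 6.42% hold TAATCC and 14.6% hold CAGATG, and of the 10218 windows open in all 4 lists, 5.02% and 10.1%.

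The lists differed more by length than by genotype. Control 1 held 39636 peaks over 11.6 Mb (median width 210 bp), control 2 108569 over 59.8 Mb (474 bp), cKO 1 91931 over 51.6 Mb (485 bp) and cKO 2 59574 over 19.6 Mb (238 bp). The groups overlapped in number and in width, and cKO minus control was 19938 peaks in the short pair and -16638 in the long pair. None of 7 values per library separated the genotypes (two-sided exact permutation p from 0.667 to 1, where 2 against 2 libraries allow no p below 0.333). Read depth is unknown, since the lists hold no read counts. Of 10 retina marker genes, 9 had a peak within 1 kb of a gene end in control 1 and all 10 in the other libraries, the exception being Otx2 (0, 588, 831 and 199 covered bases in control 1, control 2, cKO 1 and cKO 2). The 3 microglia markers had no peak there in any library, nor did Cdh5, Tyr, Rpe65 or Alb. Other markers had peaks in some libraries: 1, 2, 1 and 1 of 3 vessel markers, 0, 2, 1 and 0 of 2 astrocyte markers, 0, 1, 1 and 0 of 3 pigment epithelium markers, 1, 2, 2 and 2 of 2 erythroid markers, and 0, 1, 1 and 1 of 2 liver and muscle markers, in the same order of libraries. No list held more of these markers than control 2, the longest, and their part in the results was not tested.

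At Casz1 itself (chromosome 4, 148804366 to 148954893) and 10 kb either side, peaks covered 5678 bases in control 1, 22261 in control 2, 21584 in cKO 1 and 10902 in cKO 2. The difference in log2 covered bases after quantile normalization was 0.09 ± 0.18 (SE, 2 against 2 libraries; limma, Benjamini-Hochberg adjusted p = 0.999). The groups overlapped. As the deleted part is unknown, this does not check the genotype labels.

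Regions that differed in the same direction in both pairs were a small minority. The 318 cKO-only regions were 0.273% of all regions and the 145 control-only regions 0.125%. Inside the short pair, 20004 regions were called in cKO 2 and not in control 1, and 1545 the other way. Inside the long pair, 6929 were called in cKO 1 and not in control 2, and 23917 the other way. Of the 1672 regions that differed in both pairs, 463 (27.7%) did so in the same direction and 1209 (72.3%) in opposite directions. The cKO-only regions made up 1.59% of the short pair's cKO calls and 4.59% of the long pair's, and the control-only regions 9.39% and 0.606% of the control calls. Most of what the short pair called in cKO, 17357 regions or 86.8%, was called in both long lists.

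**Figure D1:**
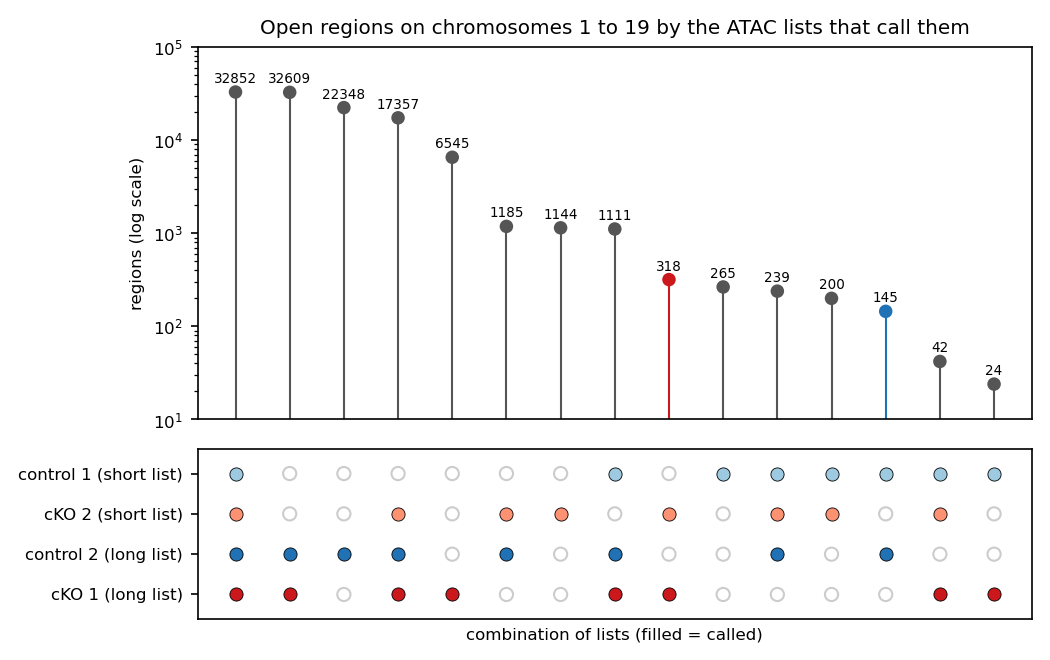
Number of open regions on chromosomes 1 to 19 (log scale) for each combination of lists, with filled circles for the lists that called them. The 318 cKO-only regions (red) and 145 control-only regions (blue) stand far below the 32852 called in all 4 lists and the 32609 called in the 2 long lists alone.

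Leaving out a list removes a condition, so each count can only grow, and the growth is no check of the regions. The cKO-only count was 17675 without control 2, 6863 without cKO 2 and 1462 without cKO 1, and the control-only count 22493 without control 1, 1256 without cKO 1, 410 without control 2 and 384 without cKO 2. When only peaks of at least 200 bp were kept, 111 cKO-only and 14 control-only regions were found.

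The genotype-only regions were narrow. The median width of the cKO-only regions was 274 bp (range 161 to 1524), with median peaks of 244.5 bp in cKO 1 and 140 bp in cKO 2. The control-only regions had a median of 260 bp (range 140 to 864), with median peaks of 116 bp in control 1 and 231 bp in control 2. Regions called in all 4 lists had a median of 827 bp, all regions one of 486 bp, and the 200 regions called in the 2 short lists alone, 1 of each genotype, one of 168 bp. At most 300 bp wide were 61.6% of cKO-only and 68.3% of control-only regions, beside 0.962% of regions called in all 4, 27.2% of all and 94.5% of those called in the short lists alone. The narrowest peak of any kind was 106 bp in control 1, 138 bp in control 2, 159 bp in cKO 1 and 110 bp in cKO 2.

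Few of them lay at a gene end. A gene end (either annotated end of a protein-coding gene) was within 1 kb of 11 cKO-only regions (3.46%, exact Clopper-Pearson 95% interval 1.74 to 6.11) and 6 control-only regions (4.14%, 1.53 to 8.79), beside 34.5% of regions called in all 4 lists, 14.4% of all regions and 4.95% of the 31677 regions that were at most 300 bp wide. The median distance to the nearest gene end was 30242 bp for cKO-only and 13576 bp for control-only regions, against 6709 bp for those called in all 4, 21577 bp for all and 29814 bp for the narrow ones. Within 50 kb of a gene end lay 62.3% of cKO-only and 71.7% of control-only regions, against 80.2%, 67.4% and 61.7%. Inside a gene lay 52.5% of cKO-only and 55.9% of control-only regions, against 67.2%, 58.3% and 53.7%. On these measures the cKO-only regions were close to narrow regions of any kind, while the control-only regions had a shorter median distance to a gene end than these and than all regions. The regions called in the 2 long lists alone, which hold 1 library of each genotype, had 6.65% within 1 kb of a gene end and 55.3% inside a gene. A listed start site was within 1 kb of 5 cKO-only (1.57%) and 4 control-only (2.76%) regions. The share was 28.75% for regions called in all 4 lists, 10.84% for all and 2.62% for the narrow ones. Intervals cover counting error only.

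Histone marks divided the genotype-only regions alike in both genotypes. H3K27ac met 82 cKO-only regions in the control library (25.8%, 21.1 to 31.0) and 83 in the cKO library (26.1%, 21.4 to 31.3), of which 18 had the mark in control only, 19 in cKO only and 64 in both. It met 35 control-only regions in control (24.1%, 17.4 to 31.9) and 33 in cKO (22.8%, 16.2 to 30.5). Regions called in all 4 lists had the mark in 69.8% and 69.5% of cases, all regions in 36.8% and 36.5%, regions at most 300 bp wide in 12.9% and 12.6%, and the regions of the 2 long lists alone in 24.1% and 24.1%. H3K27me3 met 21 cKO-only regions in the control library and 21 in the cKO library (6.60% each, 18 of them in both), and 7 and 6 control-only regions in control and cKO, beside 12.4% and 12.3% of all regions and 8.11% and 8.07% of regions at most 300 bp wide.

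**Figure D2:**
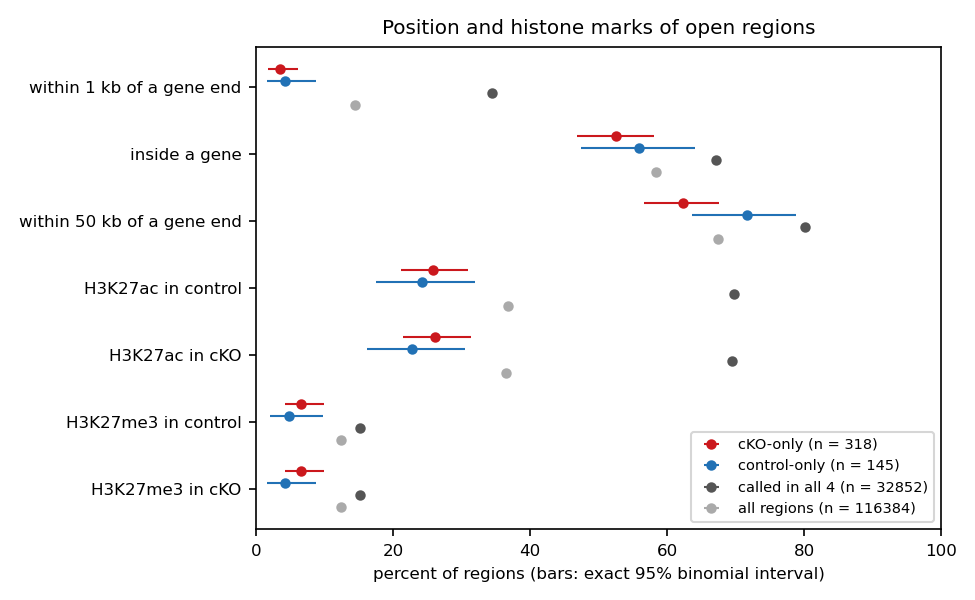
Percent of regions with each position or histone mark, for cKO-only (red), control-only (blue), all-4 (dark grey) and all regions (light grey); bars are exact 95% binomial intervals and cover counting error only. The red and blue points lie near each other, with 3.46% and 4.14% within 1 kb of a gene end, and below the 34.5% of regions called in all 4 lists.

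Few genes were nearest to more than 1 genotype-only region. The 318 cKO-only regions were nearest to 300 different genes, and the 145 control-only regions each to a different gene. How many of all open regions were nearest to each gene was not counted, so having several genotype-only regions does not set a gene apart. Phactr1, a regulator of actin and protein phosphatase, and Snx13, a sorting nexin of endosomes, were each nearest to 3 cKO-only regions. The Phactr1 regions all lie inside the gene on chromosome 13 and measured 186, 204 and 254 bp in cKO 1 and 148, 226 and 153 bp in cKO 2. The Snx13 regions lie outside the gene on chromosome 12, 29.4, 38.6 and 146 kb from its end, and measured 507, 342 and 464 bp in cKO 1 and 332, 127 and 162 bp in cKO 2.

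The other 14 genes were nearest to 2 cKO-only regions each. Prkca, the protein kinase C that marks rod bipolar cells, had 198 and 269 bp peaks in cKO 1 and 172 and 222 bp in cKO 2, at 87.4 and 139 kb from its end and inside the gene. Tenm3, a teneurin that guides retinal wiring, was nearest to 2 cKO-only regions of 270 and 221 bp and also to a control-only region of 403 bp, so it held both directions. Ptpro, a receptor tyrosine phosphatase, held a pair inside the gene (281 and 533 bp in cKO 1, 141 and 165 bp in cKO 2). Cntnap2, a neurexin-family adhesion protein, Celf2, a splicing regulator, Zmiz1, a transcriptional coactivator, Wdfy3, an autophagy adaptor, Kif18a, a mitotic kinesin, and Prep, a peptidase, each had 2, as did the gene models Gm4868, Gm10354, Gm21083, Hnrnpa1l2-ps2 and Vmn2r129. Both regions nearest to Hnrnpa1l2-ps2 lie inside Cdh18, 37.7 and 85.6 kb from Hnrnpa1l2-ps2. Of the Kif18a regions, 1 lies inside Mettl15, 75.4 kb from Kif18a.

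The cKO-only regions were found on every chromosome from 1 to 19, from 7 on chromosome 19 to 31 each on chromosomes 2 and 6. Chromosome 6 held 9.75% of them and 5.55% of all regions, and chromosome 10 held 10.3% of control-only and 5.17% of all regions. Starting within 100 kb of the previous region were 15 cKO-only and 0 control-only regions. Between 14 and 16 Mb of chromosome 5 lay 5 cKO-only regions, nearest to Gm10354, Gm17019 and Gm21083, and 2 control-only regions, nearest to Gm9758 and Speer4c. Whether near-identical gene copies share reads there was not tested. Within 10 Mb of Casz1 lay 7 cKO-only and 2 control-only regions. How many of all open regions lie this close together or in these windows was not counted. The counts therefore cannot show whether genotype-only regions gather there.

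Among the cKO-only regions within 1 kb of a gene end were those of 2 developmental regulators. The region near Wnt8b, a Wnt ligand of the developing forebrain, lay 291 bp from the gene (chromosome 19, 44514564 to 44514757) with peaks of 179 and 185 bp in cKO 1 and 2. The nearest listed start site, that of Wnt8b, was 21092 bp away. The region near Fezf1, a zinc finger factor of forebrain development, lay 525 bp from the gene (chromosome 6, 23244296 to 23244519) with peaks of 180 and 216 bp. H3K27me3 covered both regions in full in both genotypes (194 and 224 bp), and H3K27ac neither.

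The other cKO-only regions near gene ends were at genes of varied function. Pmvk, an enzyme of cholesterol synthesis (215 and 133 bp peaks in cKO 1 and 2), Enpep, a membrane aminopeptidase (399 and 110 bp), Cyp7a1, the first enzyme of bile acid synthesis (232 and 149 bp), and Plekhh2 (323 and 367 bp) carried neither mark at them. The Enpep region lay 62206 bp from the nearest listed start site. Cstdc5 and Gm7260, neighbours on chromosome 16, Gm45521, Gm10354 and Gm20346 made up the rest. The control-only regions near gene ends were at Arhgap18 (110 and 321 bp in controls 1 and 2), Kif26a, an atypical kinesin (167 and 463 bp), Car14, a membrane carbonic anhydrase of Müller glia (114 and 419 bp), Ptprf, Gm3488 and 1700003F12Rik. Ptprf also held a cKO-only region 21.0 kb into the gene, with peaks of 193 and 112 bp.

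H3K27ac was in the cKO library alone at 19 cKO-only regions (5.98%) and in the control library alone at 18 (5.66%), beside 4.19% and 4.41% of all regions. Among the 19, the region near Cdkn1a, which encodes the cell cycle inhibitor p21, lay 12.3 kb from the gene and had 534 and 438 bp peaks in cKO 1 and 2. H3K27ac covered 0 bp of it in control and 111 bp in cKO, while H3K27me3 covered 344 bp and 235 bp. In Ski, a repressor of TGF-beta signalling, peaks of 269 and 142 bp had 143 bp of H3K27ac in cKO, and near Sema3c, a secreted axon guidance factor, peaks of 342 and 137 bp had 136 bp. Near Slc2a12, a glucose transporter, the mark covered 64 bp, and in Rasal2, a Ras-inactivating protein, 210 bp. The others of the 19 were near Sh3bp4, Cdc42se2, Myh3, Mpp2, Snx13, Gm5799, Cstdc5, Morc1, BC052040, Afap1, Gm4868, Cntnap2, Klrb1c and Apba2. Of the 18 with the mark in control alone, those in Astn2 (310 bp of the mark in control), Trak1 (263 bp) and Mbd2 (45 bp) are named after their values were seen. The 5 control-only regions with H3K27ac in control alone were near Pou1f1, a pituitary transcription factor (111 and 204 bp peaks in controls 1 and 2, 204 bp of the mark), Atxn1, Gpt, Cenpe and 1700003F12Rik. With 1 ChIP library per genotype and mark, these differences have no replicate check.

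Where all 4 lists called a region, peak width was the only graded value, and no region passed the adjusted threshold. Among 32852 such regions, limma with the pairs as a block and Benjamini-Hochberg adjustment called 0 wider (0%) and 0 narrower (0%) in cKO. At an unadjusted p under 0.05 there were 759 wider and 679 narrower regions. Median widths were 253, 790, 751 and 405 bp in control 1, control 2, cKO 1 and cKO 2. The median log2 ratio of cKO to control was 0.41 in the short pair and -0.05 in the long pair. Both pairs gave the same sign in 48.8% of regions. Without control 2, limma called 185 regions wider and 3 narrower, and without cKO 1 it called 0 wider and 1 narrower, while median centring in place of quantile normalization gave 4 and 14.

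**Figure D3:**
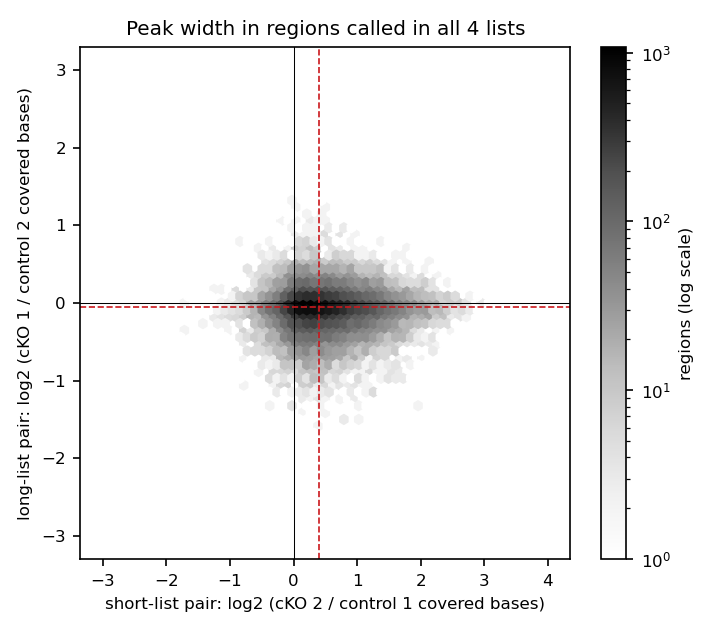
Log2 ratio of covered bases, cKO over control, in the short-list pair (horizontal) and the long-list pair (vertical) for the 32852 regions called in all 4 lists; darker cells hold more regions and dashed lines mark the medians, 0.41 and -0.05. The cloud is wider along the short pair and shows no slope.

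The regions ranked first by p in each direction are described by their widths. A region near Gm51591 on chromosome 8 was 116, 752, 1375 and 593 bp wide in control 1, control 2, cKO 1 and cKO 2, and one in Zfp932, a zinc finger gene, 140, 316, 710 and 564 bp. Both were wider in cKO within each pair, and the groups overlapped at Gm51591 but not at Zfp932. In Rnf150 a region was 171, 900, 311 and 112 bp wide, and one in Robo2, an axon guidance receptor, 143, 757, 304 and 112 bp. Thrb, the thyroid hormone receptor needed for M cones, held 2 of the 10 leading narrower regions, with 326, 706, 367 and 127 bp at its gene end and 282, 671, 340 and 157 bp at 72.3 kb from it. These were narrower in cKO within each pair. None passed the test (limma, adjusted p = 1 for each). The others were at Eea1, Mtss1, Arl4a, Nsun3, Gm14322, Itgb6, Actr3 and Nr2c1 on the wider side, and Nepro, Mex3a, Bard1, Plxnc1, Abca13 and Gpr20 on the narrower. Summed over Thrb and 10 kb either side, covered bases were 1854, 9700, 8410 and 2689 in control 1, control 2, cKO 1 and cKO 2. The normalized log2 difference was -0.008 ± 0.23 (SE).

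Summed over each gene and 10 kb either side, covered bases differed in 18 of 13190 protein-coding genes. By limma with the pairs as a block, a mean-variance trend and Benjamini-Hochberg adjustment, 12 genes were higher (0.091%) and 6 lower (0.0455%) in cKO. At an unadjusted p under 0.05 there were 412 and 266. The fit leaves 1 residual degree of freedom and takes its spread from all genes, and no gene passed without the block, with peaks of at least 200 bp only, or without any of control 1, cKO 1 or cKO 2. Without control 2, 73 genes were higher and 1 lower, 7 of them among the 18. Across all genes, 47.2% had the same sign in both pairs. The spread used for a gene came wholly from the trend over all genes. Its SE and p-value therefore do not show how far that gene's own pairs disagreed.

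Of the 18 genes, 7 differed by at least 0.3 on the normalized log2 scale, in the same direction, in both pairs. Pcdh17, a protocadherin that sorts axons and synapses, led the lower ones. Its locus (chromosome 14, 84443563 to 84537565) held 824 and 5597 covered bases in controls 1 and 2, and 2491 and 563 in cKO 1 and 2. Each cKO library was lower than the control of its pair, though the groups overlapped, and the log2 difference was -0.74 ± 0.15 (SE; limma, adjusted p = 0.00278), at -0.70 in the short pair and -0.78 in the long. A control-only region of 422 bp lies inside the gene, 3.39 kb from its end (chromosome 14, 84446953 to 84447374), and contributes 176 and 422 bases of the control values; H3K27me3 covered it in full in both genotypes. The presence call and the sum use the same peaks and are not independent.

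The other genes lower by at least 0.3 in both pairs were Sdhaf3, an assembly factor of succinate dehydrogenase, and Ktn1, which encodes kinectin. Sdhaf3 held 932 and 1742 bases in the controls, and 927 and 555 in cKO 1 and 2 (log2 difference -0.84 ± 0.20, limma adjusted p = 0.0253). Ktn1 held 831 and 2092 against 993 and 803 (-0.69 ± 0.17, limma adjusted p = 0.0423). For Sdhaf3 the lower control value (932) and the higher cKO value (927) were nearly equal, and a control-only region inside the gene, 6.15 kb from its end, contributes 153 and 348 bases of the control values. For Ktn1 the groups overlapped, and before normalization the short pair was nearly equal (831 in control 1 and 803 in cKO 2). Of 13 alternative settings, Sdhaf3 passed under 3 and Ktn1 under 1.

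The 4 genes higher by at least 0.3 in both pairs came from 2 places. Loxl2, a lysyl oxidase that crosslinks collagen, and the predicted genes Gm21451 and Gm16867 lie within 69363290 to 69695834 of chromosome 14. Gm21451 had 108, 3133, 5943 and 1627 covered bases in control 1, control 2, cKO 1 and cKO 2 (log2 difference 1.03 ± 0.16, limma adjusted p = 6.01e-07), and Loxl2 314, 3340, 4559 and 2156 (0.88 ± 0.17, limma adjusted p = 0.00127). The windows of Gm16867 and Gm21451 overlap, so they count much of the same open chromatin, and whether near-identical gene copies share reads there was not tested. Rbpms2, an RNA-binding protein of ganglion cells, had 177, 2622, 3223 and 1405 bases (0.64 ± 0.14, limma adjusted p = 0.0187). In each of these the cKO library was higher than the control of its pair and the groups overlapped.

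**Figure D4:**
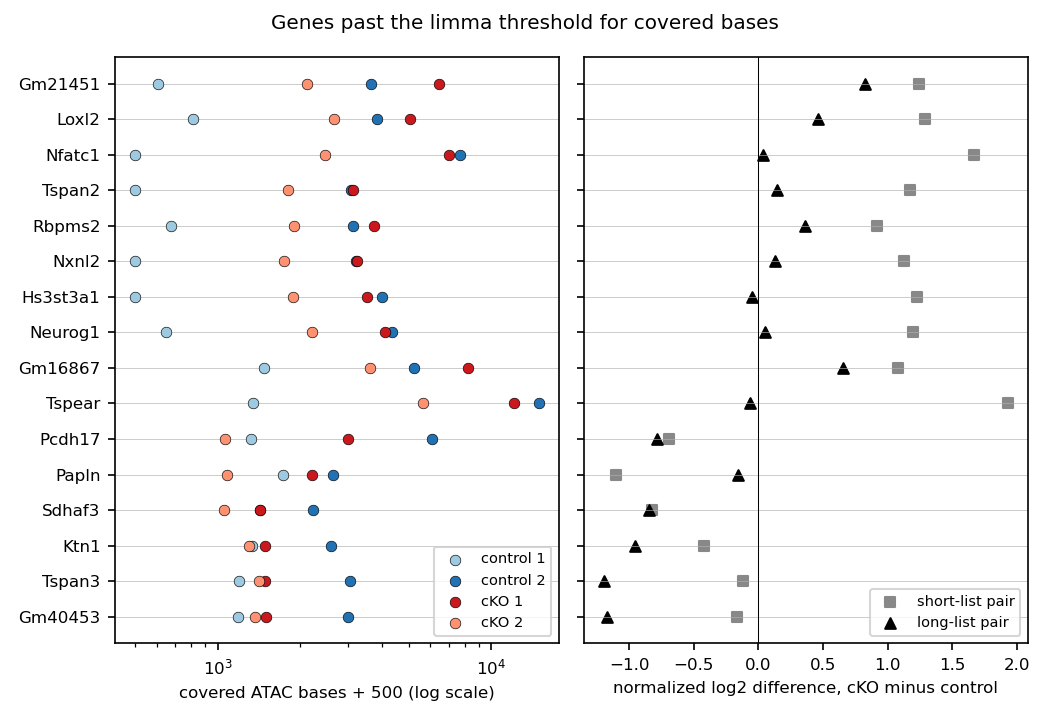
Left, covered ATAC bases + 500 (log scale) in each library for 16 of the 18 genes past the limma threshold; right, the normalized log2 difference, cKO minus control, in the short-list pair (squares) and the long-list pair (triangles). Control 1 is the lowest point in all 10 plotted genes higher in cKO, and the triangles of 6 of these 10 lie below 0.3.

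For the other genes named here the difference came mainly from 1 pair. Nfatc1, a calcium-regulated transcription factor, had 0, 7194, 6512 and 1980 covered bases in control 1, control 2, cKO 1 and cKO 2, with a log2 difference of 1.66 in the short pair and 0.04 in the long. Neurog1, a proneural basic helix-loop-helix factor, had 148, 3849, 3605 and 1714 bases (1.19 and 0.05). Control 1 was the lowest library for both. Of the 12 genes called higher, 5 had no covered base in control 1 and 5 had fewer covered bases in cKO 1 than in control 2 before normalization. Of the 6 called lower, 4 had fewer covered bases in cKO than in control within both pairs before normalization. Others called higher were Tspan2, Nxnl2, a thioredoxin-like survival factor of photoreceptors, Hs3st3a1 and Tspear. Among the lower genes, Tspan3 and Gm40453 differed mainly in the long pair (-1.19 and -1.17), and Papln mainly in the short pair (-1.11, beside -0.16).

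Genes of retinal cell types and of Casz1-linked complexes were followed in 20 lists with 312 genes on chromosomes 1 to 19, of which 267 entered the test of covered bases. None of them was called higher or lower (limma, adjusted p of at least 0.463), and 9 (3.37%) had an unadjusted p under 0.05, beside 678 (5.14%) of all 13190 genes, so the share in the lists was no larger. Of the 9, 4 were lower and 5 higher in cKO. Ptf1a, the factor that directs amacrine and horizontal fate, had the smallest, with 755 and 2624 covered bases in controls 1 and 2, and 1653 and 724 in cKO 1 and 2. Its log2 difference was -0.44 ± 0.15, at -0.41 in the short pair and -0.46 in the long. Cdkn2a, a cell cycle inhibitor gene, had 717, 4558, 2818 and 776 bases in control 1, control 2, cKO 1 and cKO 2 (-0.37 ± 0.15), and Gdf15, a p53 target, 1024, 1937, 1447 and 1014 (-0.35 ± 0.15). The groups overlapped for each of these, and after normalization the cKO library was the lower in both pairs. Pde6a, a phosphodiesterase of rods, was the other lower gene. On the higher side, Cp, the ceruloplasmin gene, had 592, 3385, 3569 and 1421 bases (0.31 ± 0.16, at 0.44 in the short pair and 0.18 in the long), and Sncg, a ganglion cell gene, 331, 2333, 2463 and 1037 (0.30 ± 0.14, at 0.41 and 0.18). Hmga2 (0.56 ± 0.22), Prkca (0.54 ± 0.23) and Trpm1 (0.33 ± 0.15) were higher in the short pair and not in the long.

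By list, the neurogenic progenitor genes had the largest share higher in both pairs, 9 of 20, with 1 lower in both and 10 opposite. Their median log2 difference was 0.16 in the short pair and 0.05 in the long. Cell cycle genes had the largest share lower in both pairs, 9 of 22, with 4 higher in both and 9 opposite. Over all 13190 genes, 23.1% were higher and 24.1% lower in both pairs, with medians of -0.05 and 0.02. Olig2, a factor of progenitors about to leave the cycle, held 659, 3917, 4355 and 1474 covered bases in control 1, control 2, cKO 1 and cKO 2 (log2 difference 0.32 ± 0.17, unadjusted p = 0.0591, limma adjusted p = 0.98). Neurod4, a proneural factor, held 1787, 5153, 4799 and 3421 (0.22 ± 0.22). Rod genes were higher in both pairs in 3 of 17, lower in 5 and opposite in 9. Among them, Nrl, the rod-determining factor, held 818, 3410, 2271 and 1252 bases (-0.16 ± 0.15) and Nr2e3, which represses cone genes in rods, 618, 4458, 4318 and 1005 (0.07 ± 0.16).

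Several lists of other cell types and common functions had opposite signs between the pairs. Of the housekeeping genes 12 of 13 differed in sign between the pairs, of the vascular genes 10 of 12 and of the pigment epithelium genes 6 of 7, beside 52.8% of all genes. NuRD genes were higher in both pairs in 3 of 14, lower in 5 and opposite in 6. Chd4, the remodelling ATPase of the complex, held 1682, 5376, 5159 and 2665 bases (log2 difference 0.10 ± 0.22) and Rbbp4, a histone-binding subunit, 1171, 1769, 1503 and 1183 (-0.26 ± 0.14). Polycomb genes were higher in both pairs in 6 of 22, lower in 8 and opposite in 8.

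**Figure D5:**
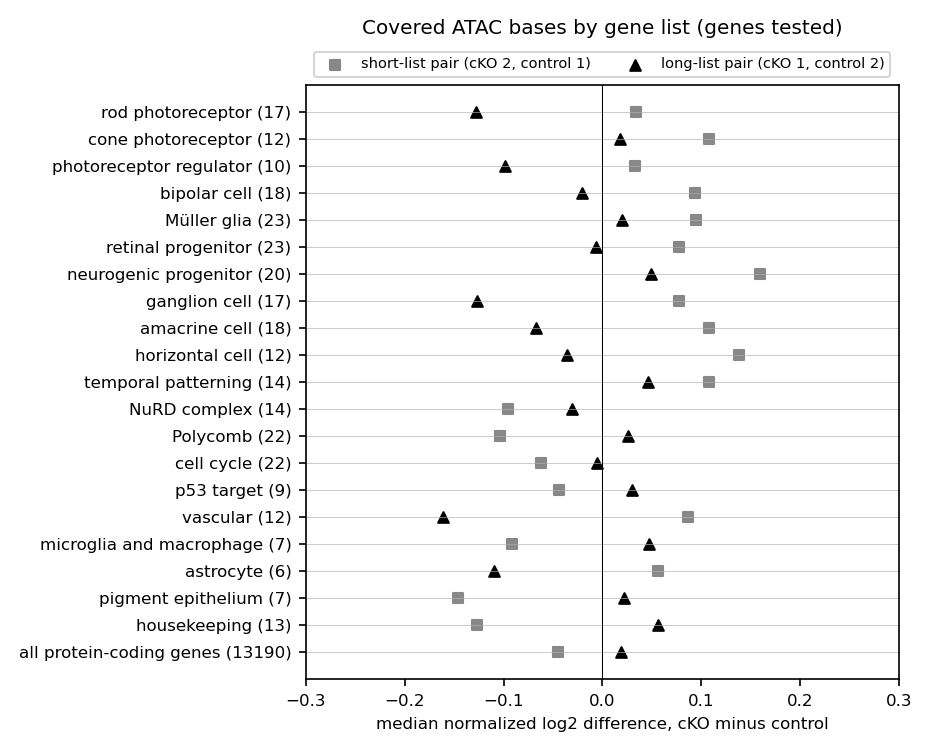
Median normalized log2 difference in covered ATAC bases, cKO minus control, over the tested genes of each list, in the short-list pair (squares) and the long-list pair (triangles); numbers of genes are in brackets. The neurogenic progenitor list lies at 0.16 and 0.05, and 14 of the 20 lists have medians of opposite sign in the 2 pairs.

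Genotype-only regions near listed genes were few. Within 50 kb of a gene end, 6 of the 312 listed genes were the nearest gene of a cKO-only region and 2 of a control-only region, beside 192 (0.929%) and 104 (0.503%) of all 20665 protein-coding genes. The p53 target list held Mdm2, the ligase that degrades p53 (region 6.83 kb from the gene, 189 and 345 bp peaks in cKO 1 and 2), and Cdkn1a, described above. The NuRD list held Mbd2, a methyl-CpG binding subunit (15.0 kb, 234 and 204 bp), and Chd5, a remodelling ATPase of neurons (4.26 kb, 165 and 111 bp), both inside the gene. Nfia, a factor of glia and late progenitors, held one inside the gene (9.45 kb from its end, 209 and 233 bp), with H3K27ac over 148 bp in control and 149 bp in cKO. Kcne2, a potassium channel subunit, was the farthest (42.3 kb). On the control-only side were Car14 and Pdgfrb, the receptor of pericytes (9.23 kb from its end, 113 and 341 bp in controls 1 and 2), with H3K27ac over 341 bp in both genotypes. None of these genes passed the test of covered bases. Of those nearest to a cKO-only region, Chd5, Kcne2 and Nfia had higher normalized covered bases in cKO in both pairs. Mbd2 and Cdkn1a were lower in both pairs, and Mdm2 was opposite between them. On the control-only side, Car14 was lower in cKO in both pairs and Pdgfrb was opposite.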

How the data were processed

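Peak lists of 4 ATAC-seq and 4 ChIP-seq libraries were used, and the 2 ChIP inputs were not analysed here. Each list gives coordinates per peak, called per library per the file headers (the peak names). The deposited score is 0 in every line, so no height, p-value or read count was at hand and depth is unknown. The submitters' processing notes name Bowtie2, MACS2, deepTools and mm10. No version, threshold, duplicate removal or Tn5 shift is given in the sources used here. Peaks outside chromosomes 1 to 19 (2.12% to 2.34% of a list) were left out.

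Groups came from the sample titles. Gene positions, start sites and promoter windows came from RefSeq tables of GRCm38.p6 (mm10), which list 20665 protein-coding genes and start sites for 16457. Exons, introns and untranslated regions were not assigned, and region sequences were not read because no genome was used. A region or window was called by a list that covered at least 1 bp of it. Covered bases were tested with limma 3.58.1 in R 4.3.3 after quantile normalization, as log2 of the region's bases, or of the gene's bases (10 kb either side) + 500, with genes of at least 1000 bases on average. Pairs of similar list length were the block, and the threshold was a Benjamini-Hochberg adjusted p of 0.05. A fold change on the log2(bases + 500) scale understates the change of low genes. Values per library were compared by exact permutation. Tables were made with Python 3.11.15, pandas 2.3.3, NumPy 2.4.6 and SciPy 1.17.1, and plots with matplotlib 3.10.9.

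The regions, pairs and gene lists (349 entries, 6 unmatched or off chromosomes 1 to 19, and 1 repeated within a list under another symbol) were chosen with earlier results of these data known. Named genes were Casz1, then, per direction, up to 10 genes with 2 or more genotype-only regions, regions within 1 kb of a gene end, regions with H3K27ac in that genotype alone, the 10 genes and 10 regions of smallest p, and up to 4 members per list with a genotype-only region within 50 kb. Pla2g4a, Emilin1, the leading list members by p, and further members of these lists were named after their values were seen. Some genes that the rule took are not analysed here by name. Alternatives changed the chromosomes, peak width, list length, merging, overlap, block, normalization, pseudocount, filter and gene window, and left out each library.

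Libraries with the same number had deviations from their group means, over the log covered bases of all regions, that correlated at -0.274. Each number joins a short list with a long one, so this value cannot show whether the numbers mark a shared experiment. The labelled numbers were not the block of the main fits.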

Additional observations from a re-analysis of the deposited data

How the results depend on the processing

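Presence calls rest largely on narrow peaks. With peaks of at least 200 bp, the cKO-only count fell from 318 to 111 and the control-only count from 145 to 14, and with at least 50% of a region covered the control-only count was 83. Leaving out each library, which can only raise a count, gave 360 to 17675 cKO-only and 384 to 22493 control-only regions. The other planned settings stayed within 1.5 times, at 231 to 325 cKO-only and 131 to 146 control-only regions. The 231 came with lists cut to equal length within each pair by keeping the widest peaks. That setting left 144 control-only regions, so it lowered the cKO-only count and hardly moved the control-only count. Per-library differences (cKO minus control) changed sign between libraries left out: from -32816 to 36116 for peak number, from -112.5 to 151.5 bp for median width (main 19.5 bp, and -4 bp with peaks of at least 200 bp), from -12.8 to 5.82 percentage points for the share within 1 kb of a gene end, and from -14.0 to 10.1 for the share meeting H3K27ac; the share meeting H3K27me3 kept its sign.

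For peak width, where 0 regions were called, median centring gave 4 wider and 14 narrower, and leaving out each library gave 0 to 185 wider and 0 to 3 narrower. For covered bases per gene (12 higher and 6 lower), the fit with no block gave 0 and 0, and the fit with the labelled numbers as a replicate block gave 0 and 0 for genes, 0 and 0 for widths and, being no test, left the 318 and 145 regions as they were. Median centring gave 18 and 1, a pseudocount of 100 bases 21 and 5, one of 2000 bases 4 and 4, no filter on low values 26 and 13, a window of 50 kb 30 and 4, peaks of at least 200 bp 0 and 0, and no mean-variance trend, chosen after seeing the data, 6 and 1. Leaving out each library gave 0 to 73 higher and 0 to 1 lower. Gm21451 and Loxl2 passed under 7 of 13 alternatives and Pcdh17 under 5, with adjusted p from 9.91e-12, 2.03e-06 and 0.000139 up to 1. Over the libraries left out, the log2 difference ran from -0.23 to 1.93 for Nfatc1 and -0.088 to 1.34 for Hs3st3a1, the lowest without control 1 and the highest without control 2, and from -0.26 (without control 2) to 0.45 (without control 1) for Casz1. The causes were not tested. The crossed numbers (0.274 by construction, beside -0.274 for the same numbers) are the pairs of similar list length already used as the block, with 12 and 6 genes. Fits without a library use no block, and a lone library is assumed to vary like the others. Read depth, which is unknown, limits all of these calls.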
